A study of Mus musculus with 2 samples.

Results

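GATA4 peaks in gene deserts were taken from the deposited peak list of a GATA4 chromatin immunoprecipitation (ChIP-seq) experiment in mouse myoblasts. A peak counted as a desert peak when its centre lay outside all protein coding and lncRNA genes, over 1 kb from their ends, and over 100 kb from the nearest end of a protein coding gene (GRCm38, RefSeq genes). The rule was met by 1910 of 17539 peaks, or 10.9% (95% Clopper-Pearson interval 10.4% to 11.4%). It used only position relative to genes, so scores, widths, spacing and the identity of neighbouring genes were not used to choose the peaks. Distances to genes are bounded by the rule itself. The other peaks outside genes, 4220 in number, lay up to 100 kb from a protein coding gene and are called nearer intergenic peaks below. The remaining 11409 peaks lay inside a gene or within 1 kb of its ends.

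The cells were myoblasts, proliferating muscle precursors, grown from satellite cells of the stock STOCK Myf5tm1Pas/J in growth medium with serum and bFGF. The stock carries a targeted allele of Myf5, a myogenic determination gene, and both libraries share it. The labels do not say whether the cells were heterozygous or how many animals or cultures were used. There was 1 GATA4 library, made with a mixture of 3 GATA4 antibodies, and 1 control IgG library. The peak list belongs to the GATA4 library. Its read counts and those of the IgG library were not used here, and their depth is unknown. Without replicates no error between samples can be given. Intervals on counts and densities cover counting error only and treat peaks as independent, although many lie in groups.

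A gene desert is a long stretch of genome without protein coding genes. Many deserts lie beside genes of transcription factors and signalling molecules and hold enhancers, regulatory sequences that act on a gene from a distance. GATA4 is a zinc finger transcription factor known for its role in heart, gut and gonad development, and it can bind enhancers far from the genes they control. A peak in a desert does not show which gene, if any, it acts on.

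Some deserts hold microRNA genes, whose products repress mRNAs that pair with their seed (bases 2 to 8). Of 1228 miRNA genes, 75 lay at desert positions, 31 of them on chromosome 12. Of the 75, 10 had a desert peak within 50 kb and 4 had one within 10 kb, and the corresponding share of all desert positions was not computed. The miR-29 family is known to act on collagen mRNAs and in muscle differentiation. Its genes Mir29b-1 (chr6:31063023-31063093) and Mir29a (chr6:31062660-31062747) lay 18.5 and 18.8 kb from a peak that scored 117, between Klf14 and Mkln1. Mir125b-2 (chr16:77646273-77646343), a relative of the founding developmental miRNA lin-4, lay 30.5 kb from a peak with a score of 72.3. The closest miRNA gene to a desert peak was Mir6420 (chr17:64440806-64440907), at 0.090 kb from a 1263 bp peak with a score of 157. Mir1899 (chr9:8246786-8246881) lay 2.72 kb from a peak that scored 117, and Mir3963 (chr3:151023792-151023862) lay 3.90 kb from one that scored 90.4. The fourth, Mir3970, is at 2.72 kb from a peak with a score of 138. The mature products below are those of the miRNA genes described here that have a listed sequence, so that their seeds, in capitals, can be compared (RefSeq, GRCm38.p6, 5′ to 3′, 1 arm per gene). The 2 miR-29 products share their seed, and the others each have their own.
miR-29a-3p: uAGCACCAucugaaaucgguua
miR-29b-3p: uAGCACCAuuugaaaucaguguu
miR-125b-5p: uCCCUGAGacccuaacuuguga
miR-6420: aCUAAUCCuauaaaaucaaac
miR-1899: aGCGAUGGccgaaucugcuucc
miR-3963: uGUAUCCCacuucugacac

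Desert peaks were sparse, and they thinned out with distance from genes. Deserts made up 682 Mb, or 25.7% of the territory measured, and held 2.80 peaks per Mb (95% Poisson interval 2.68 to 2.93), 1 peak every 357 kb. Nearer intergenic sequence held 5.84 per Mb (5.66 to 6.01), and genes with their margins held 9.10 (8.94 to 9.27). The density in deserts was thus 0.480 times that of nearer intergenic sequence (0.454 to 0.506). On the autosomes alone it was 3.23 peaks per Mb against 6.66. The Y chromosome, with 45.8 Mb of desert by this rule and 2 desert peaks, and the X chromosome pull the overall density down.

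The distance from a desert peak to the nearest protein coding gene had a median of 218 kb, with quartiles of 146 and 369 kb. Of the desert peaks, 855 (44.8%) lay from 100 to 200 kb away and 761 (39.8%) from 200 to 500 kb. A further 225 lay from 500 to 1000 kb away, and 69 (3.61%) lay farther than that. On the autosomes other than chromosome 10, the density fell at each step, from 4.51 peaks per Mb (4.19 to 4.85) between 100 and 200 kb to 3.16, 1.56 and finally 0.842 (0.625 to 1.11) over 1000 kb. Between 1 and 10 kb from genes it was 6.83. There was no step at the 100 kb limit: over all chromosomes the 10 kb just inside the limit held 4.33 peaks per Mb (3.60 to 5.17), and the 10 kb just outside it held 4.13 (3.44 to 4.92).

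**Figure D1:**
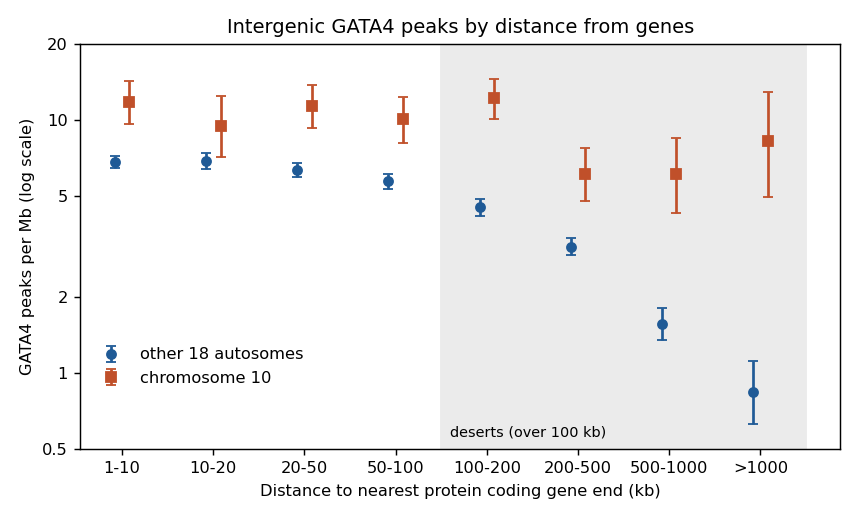
GATA4 peaks per Mb outside genes (log scale) by distance from the nearest protein coding gene end in kb, for chromosome 10 (squares) and the other 18 autosomes (circles). Bars are 95% Poisson intervals, and the shaded bands are the deserts. On the other autosomes the density falls to 0.842 peaks per Mb over 1000 kb from genes, while on chromosome 10 it is 8.27 there.

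Desert peaks were as high scoring as nearer intergenic peaks. The MACS score, the authors' own value per peak, had a median of 105.6 in deserts (95% interval of the median 102.1 to 109.7), with quartiles of 81.7 and 149. Nearer intergenic peaks had a median of 105.7 (103.4 to 108.3), so the medians differed by -0.10 (interval -4.62 to 4.42). Peaks in and at genes had a median of 97.04, and all peaks had a median of 99.34. By definition 50% of all peaks score above that value, and 53.7% of desert peaks did (1025 of 1910, interval 51.4% to 55.9%), against 53.6% of nearer intergenic and 48.0% of gene peaks. Scores over 300 were found in 53 desert peaks, or 2.77% (2.09% to 3.61%), in 2.46% of nearer intergenic peaks (2.02% to 2.98%) and in 1.797% of gene peaks (1.56% to 2.06%).

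Desert peaks had a median width of 732.5 bp (719 to 747), and the middle of the distribution ran from 574.0 to 889.8 bp between a minimum of 239 and a maximum of 2387 bp. Nearer intergenic and gene peaks both had a median of 746 bp. Peaks under 500 bp made up 15.5% of desert peaks (13.9% to 17.2%) and 14.2% of all peaks. Of these 296 narrow desert peaks, 250 (84.5%) had one of the 8 most frequent score values of the whole list, against 82.0% of all narrow peaks. One such value is 84.08, which 82 desert peaks share. The narrow desert peaks had a higher median score (138) than wider desert peaks (97.04). Over all peaks these medians were 124 and 96.24. The 34 desert peaks of 1500 bp or more had a median score of 234.6, against 234.4 for all peaks of that width.

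**Figure D2:**
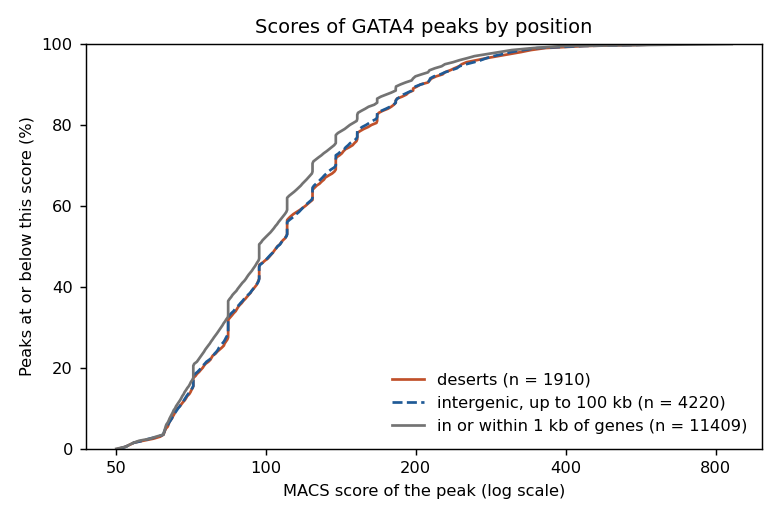
Share of peaks (%) at or below each MACS score (log scale) for desert peaks, nearer intergenic peaks and peaks in or within 1 kb of genes. The curves of the desert and nearer intergenic peaks nearly coincide, with medians of 105.6 and 105.7, to the right of the gene peaks at 97.04, and the steps are score values shared by many peaks.

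Chromosome 10 stood apart in its deserts more than elsewhere. It held 247 desert peaks, 12.9% of all (11.5% to 14.5%), at 8.30 per Mb (7.30 to 9.40). The other 18 autosomes held 2.95 per Mb, so the ratio was 2.81 (2.45 to 3.21). In nearer intergenic sequence the ratio was 1.68 (1.50 to 1.87), and in genes it was 1.75 (1.64 to 1.87). The density of desert peaks on chromosome 10 was 12.2 per Mb between 100 and 200 kb from genes and 6.13 both from 200 to 500 kb and from 500 to 1000 kb. Over 1000 kb it was 8.27 (4.98 to 12.9), but the 19 peaks behind this value lay in 2 gaps, 13 of them between Nmbr and Cited2 and 6 between Hace1 and Grik2. The excess was not only in a few places: without its 3 fullest gaps chromosome 10 held 7.25 peaks per Mb, and without its 10 fullest 6.20 (5.08 to 7.50). Of its 83 gaps between genes with desert sequence, 57.8% held a desert peak, against 38.8% of 1267 on the other autosomes. Divided into 3 equal parts along its length, it held 11.2, 5.83 and 8.21 desert peaks per Mb.

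Among the other chromosomes, 9, 13 and 15 were the densest, at 5.07, 5.06 and 4.60 desert peaks per Mb, and chromosome 14 was the lowest autosome at 1.53 (1.15 to 1.99). The X chromosome had 28 desert peaks, or 0.520 per Mb (0.346 to 0.752), 0.161 times the autosomal density. Of these, 11 lay in a single gap between Egfl6 and Tmsb4x, which encodes the actin-sequestering peptide thymosin beta 4. That gap held 34.1 desert peaks per Mb with scores from 58.3 to 153, and without it the X chromosome held 0.318 per Mb.

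**Figure D3:**
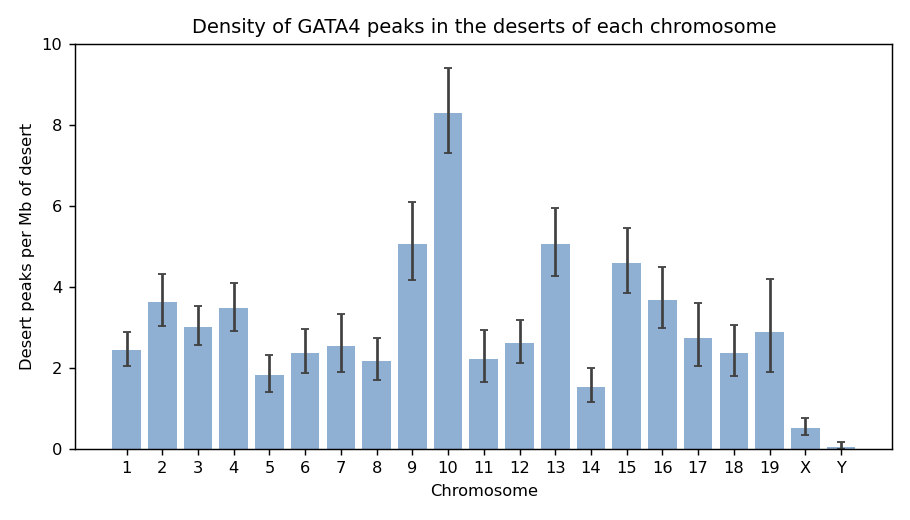
Desert peaks per Mb of desert sequence on each chromosome, with 95% Poisson intervals as bars. Chromosome 10 is highest at 8.30 peaks per Mb, and X (0.520) and Y (0.044) are lowest.

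The 20 highest-scoring desert peaks ran from 365 to 680 and lay 105 to 538 kb from the nearest protein coding gene. They were spread over 8 chromosomes, with 10 of the 20 on chromosome 10. Their median width was 1240.5 bp, and 18 of them were wider than the desert median. The highest, chr10:98627979-98630054 with a score of 680, lay 286 kb from Atp2b1, which encodes a plasma membrane calcium pump. Another peak of the same gap, chr10:98779548-98780649, scored 512 at 135 kb from Atp2b1. Near Kcnc2, a potassium channel gene, a peak with a score of 595 (chr10:112613531-112615173) lay 148 kb away and one with a score of 400 (chr10:112629557-112630777) lay 164 kb away. Beside Marcks, whose product is an actin-binding substrate of protein kinase C, peaks scored 584 (chr10:37501126-37503393, at 363 kb) and 365 (chr10:37648323-37649582, at 510 kb).

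Other high-scoring desert peaks on chromosome 10 lay beside genes of transcriptional regulators, Wnt signalling and the muscle membrane. A peak 375 kb from Cited2, a co-regulator that binds CBP and p300, scored 457 (chr10:17347288-17348432). Eya4, a transcriptional coactivator of muscle precursors, had one scoring 407 at 126 kb (chr10:23476517-23477448). Rspo3, an activator of Wnt signalling, had one scoring 369 at 105 kb (chr10:29640235-29640989). Between Epm2a and Utrn, which encodes the dystrophin relative utrophin, a peak of 2387 bp scored 366 at 436 kb from Utrn (chr10:11944519-11946905). It was the broadest desert peak of all.

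On other chromosomes the highest desert peak, with a score of 540, lay between Ptger4, a prostaglandin E receptor gene, and Dab2, which encodes an endocytic adaptor (chr15:5447675-5448611, 204 kb from Ptger4). It was inside the pseudogene Gm46496. Tgfb2, encoding a TGF-beta ligand, had a peak scoring 408 at 223 kb (chr1:186399689-186400505). Ncam1, encoding a cell adhesion molecule found on satellite cells, had one scoring 370 at 126 kb (chr9:49925490-49926140). The remaining peaks of the 20 were nearest to Mettl15 (485 at 431 kb), Tbl1xr1 (479 at 257 kb), Tenm4 (445 at 432 kb) and the predicted gene Gm41291 (443 at 175 kb). Camk1g (431 at 220 kb), Tank (408 at 283 kb) and Socs6 (379 at 538 kb) complete the set. The Socs6 peak was the narrowest of the 20, at 524 bp.

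Most gaps with desert sequence held no desert peak, and a small number held many. The protein coding genes left 1640 gaps with some desert sequence, and 557 of these, or 34.0%, held at least 1 desert peak (31.7% to 36.3%). Many gaps had little desert sequence in which a peak could lie: the 940 of up to 500 kb shared 92.8 Mb. The 1640 also include 141 gaps on the X chromosome, of which 10.6% held a peak. Of the 557, 199 held a single peak, 227 held 2 to 4 and 131 held 5 or more. The 36 gaps with 10 or more held 490 desert peaks, 25.7% of them all, in 7.02% of the desert sequence. All but 2 desert peaks lay in the 1640 gaps. Longer gaps held a peak more often but at a lower density: on the autosomes, 29.9% of gaps of up to 500 kb had one and they held 6.23 per Mb (5.67 to 6.83), whereas 58.4% of gaps over 2000 kb had one and they held 1.50 per Mb (1.33 to 1.69).

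The 10 gaps with the most desert peaks held 194, and 3 of the 10 were on chromosome 10. The gap between Nmbr and Cited2 had 26 peaks in 2.41 Mb of desert, with scores from 52.3 through a median of 121 to 457. Between Gm40892 and Flrt2, a gene of a leucine-rich repeat adhesion protein, there were 24 with scores up to 252. The Epm2a and Utrn gap, only 923 kb long, had 20 at 29.0 per Mb, with a median score of 128. The gap from Slc10a2 to Efnb2, the gene of the ligand ephrin-B2, also had 20, with a low median score of 81.9. The gap from Myc, the growth-promoting transcription factor gene, to Gsdmc had 19, with scores from 52.4 to 332. Myc was flanked by a further 7 desert peaks on its other side, with a highest score of 351.

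Within several of these gaps the peaks lay to one side. All 18 peaks between Marcks and Rfpl4b lay nearer to Marcks, although 0.689 Mb of the 1.39 Mb of desert lay nearer to Rfpl4b. Between Slc10a2 and Efnb2, 17 of 20 lay nearer to Efnb2, and between Celf2 and Gata3, 14 of 16 lay nearer to Gata3, a gene of another GATA factor. Of 24 peaks between Gm40892 and Flrt2, 19 lay nearer to Flrt2, and of 19 between Myc and Gsdmc, 14 lay nearer to Myc. Between Epha7, an Eph receptor gene, and Map3k7, which encodes the kinase TAK1, 13 of 18 lay nearer to Map3k7. In the Cdh18 and Basp1 gap 11 of 17 lay nearer to the cadherin gene Cdh18, and between Epm2a and Utrn the peaks divided evenly, 10 and 10. Nearness is not evidence of which gene a peak acts on, and these sides were compared after the peaks had been plotted.

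**Figure D4:**
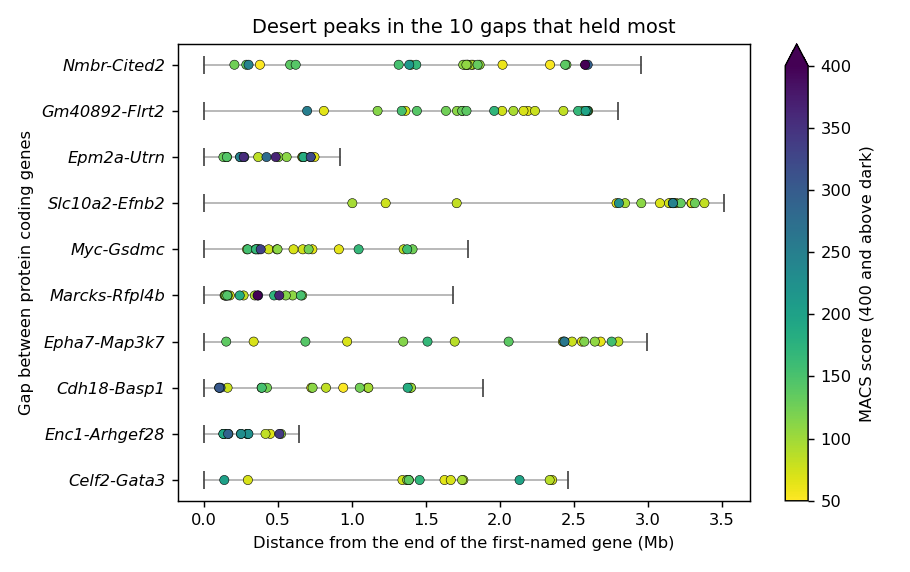
Desert peaks (points, coloured by MACS score) in the 10 gaps between protein coding genes that held most, by distance in Mb from the end of the first-named gene. Vertical ticks mark the flanking genes. The 18 peaks between Marcks and Rfpl4b all lie nearer to Marcks, and the 20 between Epm2a and Utrn are spread along the gap.

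Relative to length, other gaps were fuller. Among gaps with 8 or more desert peaks, the gap between Ube2e3 and Itga4, an integrin gene, had 64.7 peaks per Mb of desert (8 peaks, scores 58.3 to 361). Next were the gaps from Adamts3, a procollagen-processing protease gene, to Cox18 with 61.0 per Mb (8 peaks) and from Enc1 to Arhgef28 with 57.0 (16 peaks, scores 64.1 to 341). The gap from Phlda1 to Krr1 had 48.5 per Mb, and that from Jun, a subunit of the AP-1 transcription factor, to Fggy had 48.3 (13 peaks, scores 62.9 to 301). They were picked by density once the values were known.

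Most desert peaks had another one nearby. Of 1910, 1111 (58.2%, interval 55.9% to 60.4%) had another desert peak within 50 kb, and 799 stood alone. The same share over all peaks or nearer intergenic peaks was not computed, so grouping is not shown to be particular to deserts. Chains of peaks spaced by up to 50 kb formed 154 groups of 3 or more and 41 groups of 5 or more. The 271 peaks in groups of 5 or more had a median score of 110.4 (104 to 118), and the solitary peaks had 99.3 (97.0 to 105), with largely overlapping quartiles (79.8 to 153 and 79.4 to 138).

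The largest groups had 10 peaks each. One spanned 134 kb between Eya4 and Rps12 (chr10:23476517-23610863), with scores in order along the chromosome of 406.8, 276.9, 197.7, 119.1, 64.87, 239.4, 113.7, 186.8, 63.12 and 149.7. Its strongest peaks stood at the end nearer to Eya4. Another spanned 132 kb between Jun and Fggy (chr4:95319232-95451200), with scores of 71.57, 216.4, 67.76, 301.1, 292.5, 204.4, 138.5, 62.91, 195.2 and 71.57. Here the highest scores stood inside the group. The third spanned 162 kb between Rasgrp1 and Thbs1, which encodes the matrix protein thrombospondin 1 (chr2:117542317-117703911), with scores of 239.1, 182.4, 159.8, 84.16, 113.7, 152.7, 90.4, 86.3, 96.5 and 84.08. Groups of 8 or 9 lay between Mctp2 and Rgma (highest score 356), between Eci2 and Cdyl (340), beside Has2, the gene of a hyaluronan synthase (338), and between Igfbp3 and Tns3 (153), among others.

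Deserts beside early response and matrix genes were the fullest of the gene lists examined, and deserts beside neural adhesion genes were among the emptiest. For each of 14 lists, the gaps flanked by its genes were collected, and a gap counts for a list whichever side its peaks lie on. Background for all gaps is 2.80 peaks per Mb with 34.0% holding a peak. Over all 21887 protein coding genes, 2729 flanked such a gap, and 1028 of these had desert peaks in one. The lists were not tested against these values, and their genes were chosen with earlier results of these data known.

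Of 32 early response and YAP target genes, 13 flanked a desert, and 9 of these had desert peaks. Their 16 gaps held 80 desert peaks in 5.31 Mb, or 15.1 per Mb (11.95 to 18.8), and 62.5% of the gaps had one. The leading genes were Myc with 26 peaks, Marcks with 18, Jun with 13 and Cxcl12, a chemokine gene, with 9 (scores 75.5 to 316). Mycn flanked 0.328 Mb of desert without a peak. Egr2, Areg and Pthlh also had none, but flanked only 0.0086, 0.0081 and 0.0119 Mb, too short for a count of 0 to be informative. Without the gaps of Marcks the density was 15.8 per Mb, without those of Myc 16.4, and without chromosome 10 it was 16.2. The gaps of Marcks (12.9 per Mb) and Myc (9.59 and 14.8) were below the list's own density, so leaving them out could only raise it. The gap from Jun to Fggy, at 48.3 per Mb, was not left out.

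Of 40 matrix and fibroblast genes, 18 flanked a desert and 16 of these had desert peaks. Their 21 gaps held 70 peaks, 9.65 per Mb (7.53 to 12.2), and 81.0% of the gaps had one. Has2 had 15, of which 8 lay on one side with scores from 66.1 to 338 and 7 on the other with scores from 62.5 to 201. The nearest lay 100 and 102 kb from the gene. Thbs1 and Tnc, which encodes tenascin C, had 11 each, Adamts5, an aggrecanase gene, had 7 and Fn1, the fibronectin gene, had 5. Only Col5a2 (0.081 Mb of desert) and Spock3 (0.961 Mb) had none. Without the gaps of Has2 the density was 8.63, and without that of Thbs1 8.49.

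Of 84 developmental transcription factor genes, 71 flanked a desert and 48 of these had desert peaks, 193 in all at 4.12 per Mb (3.56 to 4.75). Gata3 had 16 (scores 65.1 to 202), Klf6 15, Klf4 13 (scores 62.8 to 159) and Zeb2, a repressor of epithelial genes, 12. The Zeb2 peaks also count for Acvr2a, an activin receptor gene, which flanks the same gap of 3697 kb. Sox9 and Runx1 had 9 each. Bcl11a (1.21 Mb of desert), Sall1 (1.03 Mb), Pou3f2 (0.991 Mb), Tbx3 (0.598 Mb), Hand2 (0.508 Mb) and Tfap2a (0.226 Mb) were among those that flanked deserts without a peak. Tbx5 (0.031 Mb) and Runx2 (0.016 Mb) also had none, in deserts too short for that to be informative. Gata6 had 2.

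Of 53 signalling genes, 30 flanked a desert, 17 of them with desert peaks, at 4.94 per Mb (3.77 to 6.36). Inhba, the activin A subunit gene, had 7 peaks with scores from 71.6 to 205. Tgfbr2, a TGF-beta receptor gene, had 6 at 34.4 per Mb, and Tgfb2 had 5 with scores from 65.3 to 408. Bmp2 (1.06 Mb of desert), Fgfr2 (0.262 Mb), Wnt5a (0.104 Mb) and Bmp7 (0.103 Mb) had none in the deserts they flank. Nog had none either, but its 0.0076 Mb is too short for that to be informative.

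Among the 27 myogenic regulators, 8 flanked a desert, and 6 of these had desert peaks, 21 in all at 5.27 per Mb (3.26 to 8.05). This rested on Eya4, which had 11. Without its gaps the density was 2.71 per Mb (1.30 to 4.98), and the interval includes the background. Tcf4, an E protein gene, had 4 with scores from 71.6 to 167. A single peak between Eya1 and Msc, 174 kb from Eya1, scored 323. Of the 4 cardiac genes that flanked a desert, Gja1, the connexin 43 gene, had 12 of the 13 desert peaks (scores 63.8 to 205). The other was beside Zfpm2, the gene of the GATA cofactor FOG2, with a score of 127. The cardiac list had 5.43 per Mb (2.89 to 9.28), and 0.637 without chromosome 10. Among satellite cell genes Ncam1 had 7 and Cxcr4 had 2, and the Ncam1 peaks also count for the neural adhesion list. The satellite cell list had 8.98 per Mb (4.10 to 17.0) in only 3 gaps, and its interval includes the value for matrix genes, 9.65.

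Dmd, Sgcd and Sgcz, genes of the dystrophin complex, were the sarcomere and contractile genes that flanked a desert. None of their 4 gaps held a peak. These 0 peaks in 2.23 Mb allow up to 1.35 per Mb, taking 3 counts as the limit for a count of 0 (exact Poisson limit 1.66). The Dmd gap, with 1.16 Mb of desert, lay on the X chromosome, where deserts held 0.520 peaks per Mb. The 3 autosomal gaps had 1.07 Mb of desert, and their exact limit of 3.45 per Mb includes the background of 2.80. All 3 were up to 1000 kb long, and the limit lies below the 4.98 per Mb of all autosomal gaps of that length. This difference was not tested. Of 56 cadherin and other neural adhesion genes, 52 flanked a desert. Their 80 gaps held 136 peaks in 101.5 Mb, or 1.34 per Mb (1.12 to 1.58), and 35 of the 80 had one. Flrt2 had 29 of these peaks, and without its gaps the density was 1.10. Epha7 had 23, Cdh18 19 and Cntn5 14, while Cdh6, Cdh8, Cdh9, Cdh10 and Nlgn1 (only 0.182 Mb of desert) had none. Lists of other cell types flanked from 0.808 to 4.92 Mb of desert. Neuronal markers had 9 (3.58 per Mb, interval 1.64 to 6.80), endothelial markers 4 (3.05, 0.830 to 7.80) and the blood marker Ptprc 4 (4.95, 1.35 to 12.7), and these intervals include the background. Liver, gut and gonad genes had 5 (1.02, 0.330 to 2.37), below it. However, 4.36 of their 4.92 Mb lay in 2 gaps over 1000 kb. There they had 1.15 per Mb (0.372 to 2.68), an interval that includes the 2.19 of all autosomal gaps of that length. No housekeeping or ribosomal gene flanked a desert.

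Gap length moved with these densities. Gaps beside adhesion genes were long, with a median of 982 kb against 425 kb for all gaps. Among autosomal gaps of up to 1000 kb, adhesion genes had 2.18 desert peaks per Mb (1.47 to 3.11) against 4.98 for all gaps. Early response genes had 18.9 (13.3 to 26.2) and matrix genes 9.53 (7.12 to 12.5). Among gaps over 1000 kb the values were 1.27 for adhesion genes, 12.9 for early response genes and 10.04 for matrix genes against 2.19 for all gaps, the latter from only 3 and 2 gaps. Developmental transcription factors had 4.62 (3.69 to 5.71) in 65 shorter gaps, an interval that includes the 4.98 of all gaps. In 25 longer gaps they had 3.80 (3.12 to 4.59) against 2.19. Signalling genes had 5.51 (3.92 to 7.53) in 32 shorter gaps, an interval that includes the 4.98 of all gaps. In 4 longer gaps they had 4.15 (2.57 to 6.34) against 2.19.

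**Figure D5:**
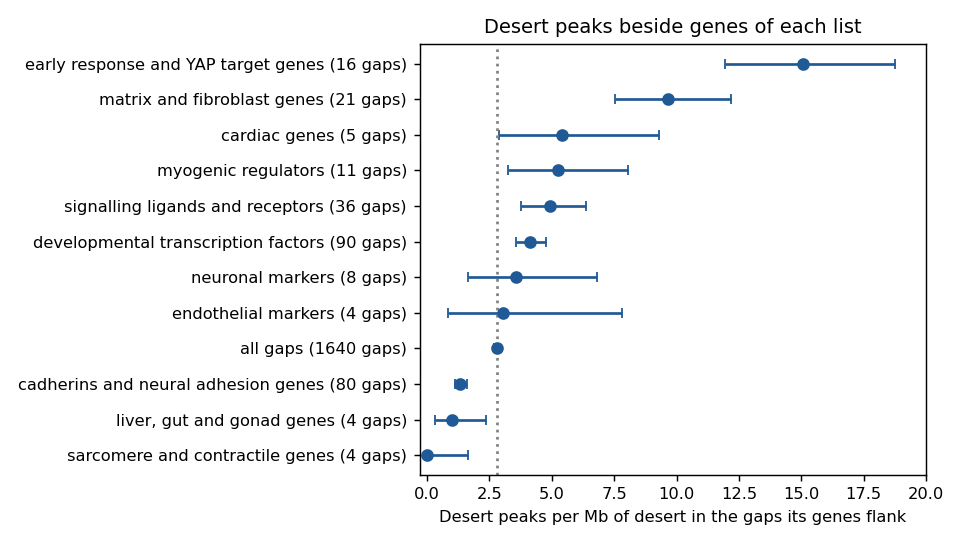
Desert peaks per Mb of desert sequence in the gaps flanked by genes of each list, for lists with 4 or more gaps, with 95% Poisson intervals as bars. The dotted line is the value for all 1640 gaps, 2.80 peaks per Mb. Early response genes (15.1) and matrix genes (9.65) lie to its right and cadherins and neural adhesion genes (1.34) to its left.

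Some of the longest deserts without a peak lay beside cadherin and contactin-associated genes. Of 77 autosomal gaps over 2000 kb, 32 held no desert peak. The gap from Cntnap5b to Cdh20 had none in 4.02 Mb of desert, which by the same limit of 3 counts allows up to 0.747 peaks per Mb. That from Pcdh7 to G6pd2 had none in 3.41 Mb (up to 0.879), and that from Cdh6 to Cdh9 had none in 3.28 Mb (up to 0.914). The gap from Celf4 to Pik3c3, the longest at 4511 kb, also had none. Read coverage was not analysed here, so peaks below the authors' calling threshold in these deserts would not be seen.

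The peaks farthest from genes were of ordinary strength. The farthest, chr14:82065105-82065762, lay 2042 kb from Olfm4 and 2378 kb from Pcdh17 and scored 106. The next lay between Pcdh20 and Pcdh9 at 1826 kb (83.8), between Nudt12 and Efna5 at 1777 kb (107.8) and 1725 kb (124), and between Slc10a2 and Efnb2 at 1709 kb (82.1). The 69 peaks over 1000 kb from any protein coding gene had a median score of 108 (quartiles 82.1 and 138), and those between 500 and 1000 kb had 97.04.

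At the 100 kb limit, the 3 peaks just inside lay near Mfap3l (score 140 at 100.2 kb), Tprg (110 at 100.2 kb) and Htr2a (77.3 at 100.2 kb). The 3 just outside lay near Tcf4 (119 at 99.8 kb), Ssbp2 (175 at 99.8 kb) and Pgrmc2 (96.9 at 99.7 kb). The narrowest desert peaks were 239, 254 and 261 bp wide and scored 261, 198 and 198. They lay between Nxph1 and Ndufa4, Hace1 and Grik2, and Dipk2b and Tex13c3.

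Deserts were not free of other transcripts. The nearest lncRNA gene end lay at a median of 82.6 kb from a desert peak, and 208 peaks (10.9%) had one within 10 kb. They had a median score of 102 (96.3 to 115), against 108 (102 to 110) for the 856 peaks over 100 kb from any lncRNA end. The centres of 25 desert peaks (1.31%) lay inside 16 genes of other types, mostly pseudogenes. Of these, 7 lay in Rnls, which RefSeq lists as a transcribed pseudogene on chromosome 19 here, with scores from 84.08 to 239. The immune receptor loci Igk and Tcrb, which are not classed as protein coding, held 3 and 1. Peaks inside the pseudogenes Gm7931 and Gm18841 scored 220 and 199.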

How the data were processed

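One GATA4 ChIP library and 1 IgG library of mouse myoblasts were described in the labels, and 1 peak list was deposited. Per the file header, the authors called peaks with MACS in Galaxy. CASAVA 1.8, Bowtie and the build GRCm38 (mm10) are named in the submitters' processing notes. Not given in the sources used here: MACS version, threshold, control and duplicate handling. The score per peak is the authors' deposited value and was compared only within this list.

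Genes came from a RefSeq table of GRCm38.p6 (21887 protein coding and 12727 lncRNA genes). Peak starts were made 1-based, and peaks were placed by their centre. Territory was measured on each chromosome between 3 Mb and its last gene end, with assembly gaps not removed, so true densities may be higher where gaps lie in deserts. Gaps are stretches over 200 kb between neighbouring protein coding genes. Intervals are exact binomial, exact Poisson or, for medians, binomial order statistics (scipy 1.17.1), and that of a difference of medians combines both. The limit for a count of 0 is 3 counts. With 1 library nothing was tested. The rule and territory lengths were tested on simulated data.

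Named in the text by rule are the 20 highest-scoring peaks, the 10 fullest gaps, the 5 farthest peaks, 3 at each side of the limit, the 3 narrowest and broadest, other gene types holding peaks, and up to 4 genes per list by number of desert peaks. Other names were chosen after their values were seen. The members and lists were chosen with earlier results of these data known. All 457 list entries matched. Genome sequence was not used here, so motifs and GC content were not examined, and none of the 32851 promoter windows in the RefSeq sequence table overlapped a desert peak. Some genes that the rule names are not reported here.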

Additional observations from a re-analysis of the deposited data

How the results depend on the processing

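No paired analysis was possible because there was 1 library per antibody. The 8 measures of the desert peaks were recomputed with other desert limits, gene sets, peak sets and chromosomes. Of 81 recomputed values, 56 stayed within the interval of the reported value (for the number of peaks, within 1.5 times) and 25 moved. The difference in median score from nearer intergenic peaks stayed within its interval in all 10. With a 50 kb limit the density was 3.26 peaks per Mb and its ratio to nearer intergenic sequence 0.529. With a 200 kb limit there were 1055 peaks, 2.23 per Mb, a ratio of 0.410, and 53.9% with a neighbour within 50 kb. With a 500 kb limit there were 294 peaks, 1.44 per Mb, a ratio of 0.296, a median width of 711 bp, 18.7% on chromosome 10 and 41.8% with a neighbour. The ratio was below 1 under every limit and gene set run. Ignoring lncRNA genes gave 3.15 peaks per Mb and 63.1% with a neighbour, and using only protein coding genes with an NM transcript gave 2.67 per Mb and a ratio of 0.434. Among peaks above the list's median score there were 1025, at 1.50 per Mb, with a median score of 142.5, a median width of 754 bp and 45.7% with a neighbour. Without chromosome 10 the density was 2.55 and on the autosomes 3.23 per Mb. Counting neighbours within 20 or 100 kb gave 42.6% or 72.3%.

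The alternatives without a list's leading gene, without the fullest gaps of chromosome 10, by gap length, and of the gene lists and distance bands by chromosome, were added after seeing the data and stand in the report. The planned GATA motif comparison was not run, since no genome sequence was used here. Peak height against read depth, and peaks below the authors' threshold, could not be assessed from a peak list.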
